A study of Mus musculus with 5 samples.

Results

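The mitochondrial chromosome of the mouse encodes 37 genes in the GENCODE annotation of mm10: 13 messenger RNAs, 2 ribosomal RNAs and 22 transfer RNAs. Members were taken by symbol, as every gene on that chromosome whose name begins with mt-, and 13 of the 37 had a row among the 39056 genes of the count table. All 13 were messenger RNAs. The 2 ribosomal and 22 transfer RNAs were not analysed here. 8 of the 13 passed a filter on low counts and were tested, and 5 did not pass it.

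The mice were C57BL/6, sampled at postnatal day 15, and RNA came from their bone marrow. Haematopoietic stem and progenitor cells were sorted as the LSK population, which is negative for lineage markers and positive for Sca-1 and Kit, at about 12000 cells per library. There were 2 wild-type (WT) libraries and 3 from mutants null for Gabbr1, the ligand-binding subunit of the GABA-B receptor. No source used here gives the kind of null allele, and no treatment was named. The labels' extraction text gives an n of 4 for each genotype and the design text 2 and 3, without saying of what, and no label says that each library came from its own mouse, so the p-values below measure the spread between libraries, which may be in part technical.

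Mitochondrial DNA is transcribed into long precursors from both strands, which are cut at transfer RNAs into the mature messengers and ribosomal RNAs. The messengers encode core subunits of the respiratory chain: 7 subunits of complex I (NADH dehydrogenase), cytochrome b of complex III, 3 subunits of complex IV (cytochrome c oxidase) and 2 of complex V (ATP synthase). The other subunits, and all proteins that copy, transcribe and process mitochondrial nucleic acids, are encoded in the nucleus. Pieces of mitochondrial DNA have also been copied into nuclear chromosomes, where they are annotated as pseudogenes, and reads from a messenger that has an identical nuclear copy cannot be assigned to 1 place.

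Whether such copies bear on which members could be measured was not tested. The letters of 4 messengers are shown beside those of their nuclear copies. The stretches are 60 bases from GENCODE transcripts, in the direction of the gene, and capitals mark bases at which a copy differs from the mitochondrial gene above it. The mt-Co2 stretch is chrM:7013-7072 on the plus strand and its copy Gm28661 is chr1:24615506-24615565 on the minus strand. The mt-Co1 stretch is chrM:6450-6509 on the plus strand, with copies Gm29216 at chr1:24616069-24616128 and Gm13340 at chr2:22588466-22588525, both on the minus strand. The mt-Nd3 stretch is chrM:9459-9518 on the plus strand, with Gm28438 at chr1:24613060-24613119 on the minus strand, and the mt-Cytb stretch is chrM:14205-14264, with Gm11410 at chr4:80004049-80004108, both on the plus strand.
mt-Co2: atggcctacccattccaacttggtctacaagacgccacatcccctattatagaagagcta
Gm28661: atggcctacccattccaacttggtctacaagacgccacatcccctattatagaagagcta
mt-Co1: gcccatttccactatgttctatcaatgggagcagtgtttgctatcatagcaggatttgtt
Gm29216: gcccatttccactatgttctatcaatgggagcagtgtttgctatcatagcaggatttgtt
Gm13340: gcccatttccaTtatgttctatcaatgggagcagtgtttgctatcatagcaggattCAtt
mt-Nd3: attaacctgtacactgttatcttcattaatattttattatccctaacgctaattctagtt
Gm28438: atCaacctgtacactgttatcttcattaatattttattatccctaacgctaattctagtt
mt-Cytb: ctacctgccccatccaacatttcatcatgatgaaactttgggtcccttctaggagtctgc
Gm11410: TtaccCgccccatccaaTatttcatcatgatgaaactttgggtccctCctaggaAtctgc
The stretch of mt-Co2 is identical in Gm28661. In mt-Co1 it is identical in the chromosome 1 copy and differs at 3 bases in the chromosome 2 copy. For mt-Nd3 the only difference over the 345 aligned bases is T3C, where position 3 is counted from the first base of the gene and the mitochondrial base is given first. The mt-Cytb stretch differs from its copy at 5 bases.

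7 copies with over 99% identity (Gm29216, Gm28661, Gm10925, Gm28437, Gm28438, Gm10222 and Gm28439) lie in a row on the minus strand of chromosome 1, from 24611535 to 24616197 (mm10). Their order is that of the mitochondrial genes from the end of mt-Co1 to the middle of mt-Nd4, chrM:6381-11042. Base by base, 5 of the copies sit at the same offset from the mitochondrial chromosome, and the other 2, of mt-Nd4l and mt-Nd4, are shifted by 1 base. The copies Gm28661 of mt-Co2, Gm10925 of mt-Atp6, Gm28437 of mt-Co3, Gm10222 of mt-Nd4l and Gm28439 of the first 876 bases of mt-Nd4 were 100% identical where aligned. mt-Atp8 has no annotated copy in that row, but the shared offset on both sides of it places its counterpart at chr1:24614609-24614812, whose sequence was not used here.

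The counts of the 13 messengers fell into 2 levels that go with these copies, and mt-Nd3 and mt-Atp8 are the exceptions. The measure of distinctness was the share of a gene's 50-base windows, the length of a read, that occur in no annotated transcript of a gene outside the mitochondrial chromosome. For mt-Co2, which encodes subunit 2 of cytochrome c oxidase, 0.0% of windows were distinct, and its count was 0 in WT library 1 and 8 in WT library 2, with 1, 0 and 6 in null libraries 1, 2 and 3. mt-Atp6, the proton channel subunit of ATP synthase, had 0.5% distinct windows and 1 and 3 counts in WT and 1, 0 and 2 in null. mt-Co3, subunit 3 of cytochrome c oxidase, had 0.1% distinct windows and 1 and 0 counts in WT and 2, 0 and 1 in null. No library had more than 9 counts of any of these genes or of mt-Nd4l, a small complex I subunit with 1.2% distinct windows and 5, 2, 9, 3 and 7 counts in the same order.

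mt-Atp8, a small subunit of ATP synthase, was listed at 0 in all 5 libraries although all of its windows were distinct among annotated transcripts. Its 3' end overlaps the start of mt-Atp6, and its chromosome 1 counterpart is not an annotated transcript. mt-Nd3, a complex I subunit, had 2.0% distinct windows and yet 854 and 463 counts in WT and 518, 663 and 713 in null. The other 7 messengers had at least 37.8% distinct windows (mt-Nd4; in mt-Nd1, mt-Nd6 and mt-Cytb all were distinct) and at least 2211 counts in every library. No source used here says how reads with several matches were treated, and the part of that choice in the near-zero counts was not tested. The near-zero counts therefore give no level for mt-Co2, mt-Co3, mt-Atp6, mt-Atp8 or mt-Nd4l, and no fold change between genotypes is given for them.

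**Figure D1:**
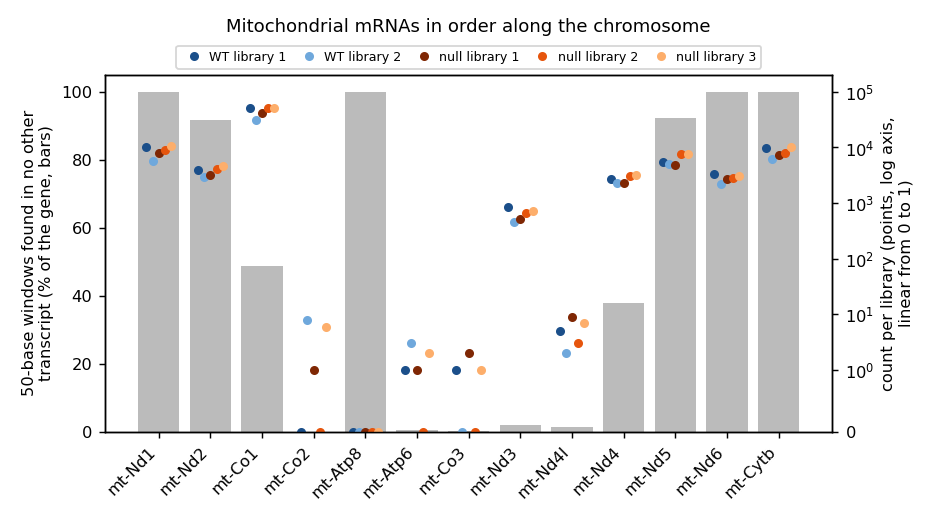
Share of 50-base windows found in no transcript of a gene outside the mitochondrial chromosome (grey bars, percent, left axis) and count in each of the 5 libraries (points, right axis, logarithmic above 1 and linear from 0 to 1) for the 13 mitochondrial messengers in chromosome order. The 5 messengers from mt-Co2 to mt-Co3 and at mt-Nd4l have 0 to 9 counts, mt-Nd3 has 463 to 854, and the other 7 have at least 2211.

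Some nuclear copies held more counts than the mitochondrial gene they match. Gm28437, the copy of mt-Co3, had 100 and 52 counts in WT and 74, 74 and 109 in null libraries 1, 2 and 3. Gm10925, the copy of mt-Atp6, had 34 and 14 counts in WT and 22, 26 and 39 in null. In both, the lowest value was that of WT library 2, which also had the lowest total of the mitochondrial messengers. Of 26 aligned copies, 8 had no count in any library and 4 passed the filter on low counts. Those 4 (Gm29216, Gm13340, Gm10925 and Gm28437) had log2 fold changes, null over WT, of -0.36, -0.19, 0.26 and 0.16, with edgeR adjusted p between 0.735 and 0.889.

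5 of the 13 messengers had near-zero counts that give no level, so the sum of the 13 does not measure the whole mitochondrial pool. The 13 messengers, as counted, took a small part of each library. They summed to 88602 and 55337 counts for WT, and to 70608, 86666 and 90664 for null, which is 1.11% and 0.794% of all counts in WT and 0.906%, 1.15% and 1.11% in null. On the CPM scale, which is the count relative to the library total after TMM scaling, the sum was 10905 and 7881 in WT and 9408, 11436 and 11179 in null libraries 1, 2 and 3. WT library 2 was lowest and null library 2 highest, WT library 1 lay inside the null range, and the groups overlapped. The WT mean was 9393 ± 2138 CPM (SD, n = 2), and that of the null libraries 10674 ± 1104 CPM (SD, n = 3). The log2 fold change, null over WT, was 0.18 ± 0.16 (SE), with a 95% interval from -0.15 to 0.52 that spans 0.899-fold to 1.44-fold, an unadjusted edgeR p of 0.258 and an exact two-sided permutation p of 0.5, where 0.1 is the smallest p that the 10 splits allow. In bulk RNA, fewer cells of a type and less RNA per cell cannot be told apart.

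That estimate rested on the WT libraries, which differed 1.38-fold from each other. Without WT library 1 the log2 fold change of the sum was 0.43 (unadjusted edgeR p = 0.0111, exact permutation p = 0.25), and without WT library 2 it was -0.03 (edgeR p = 0.803, exact permutation p = 1.0). The lone WT library is then assumed to vary like the null ones, and 0.25 is the smallest permutation p that 1 against 3 allows. Null library 1 was lowest of the 3 null libraries in the sum, and it alone had a high count of the X-inactivation transcript Xist (22532, against at most 21 elsewhere). The labels give no sex of the mice, and the part of sex in these values was not tested. Without null library 1 the log2 fold change of the sum was 0.27.

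No tested messenger passed the test between genotypes. The edgeR quasi-likelihood test with Benjamini-Hochberg adjustment called 0 of 8 at an adjusted p under 0.05, against 2.48% of all 13467 genes tested. By direction, 0 members were higher, where 2.15% of all genes were, and 0 were lower, where 0.334% were. DESeq2 and limma-voom also called 0 of the 8, against 2.87% and 1.88% of all genes. At an unadjusted edgeR p under 0.05, 0 of 8 passed, where 12.8% of all genes did. In 0 of the 8 were the library values of the groups apart, as they were in 29.2% of all genes. The log2 fold changes ran from -0.07 to 0.34 with a median of 0.18, against a median of 0.00 over all tested genes, and 7 were positive and 1 negative. These messengers come from shared precursors, so that the 8 signs are not independent.

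Among complex I subunits, mt-Nd5 had the largest difference. It encodes a large subunit of the proton-pumping arm of the complex (chrM:11742-13565, plus strand), and was at 673 and 704 CPM in the WT libraries and 650, 1001 and 957 CPM in null libraries 1, 2 and 3. Null libraries 2 and 3 were above both WT libraries, and null library 1 was below both. The log2 fold change was 0.34 ± 0.17 (SE, 95% interval -0.04 to 0.71, edgeR adjusted p = 0.448). Without null library 1 it was 0.51, with an edgeR adjusted p of 0.128.

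mt-Nd4, another subunit of the same arm (chrM:10167-11544, plus strand), followed the same order of null libraries. Its values were 327 and 321 CPM in the WT libraries and 302, 408 and 401 CPM in null. Since the first 876 of its 1378 bases match Gm28439 exactly, 37.8% of its windows were distinct. Its log2 fold change was 0.19 ± 0.14 (SE, 95% interval -0.12 to 0.51, edgeR adjusted p = 0.645), and 0.32 without null library 1 and 0.12 without null library 2.

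mt-Nd1, a subunit that lines the ubiquinone channel (chrM:2751-3707, plus strand), was at 1259 and 822 CPM in the WT libraries and 1041, 1210 and 1288 CPM in null. The lower 2 null values lay between the WT values and null library 3 was above both. Its log2 fold change was 0.18 ± 0.17 (SE, edgeR adjusted p = 0.747), and -0.09 without WT library 2. mt-Nd2, a further subunit of the proton-pumping arm (chrM:3914-4951, plus strand), was at 488 and 420 CPM in the WT libraries and 427, 532 and 575 CPM in null. Null library 1 lay between the WT values and the other 2 above them, and the estimated log2 fold change was 0.17 ± 0.15 (SE, edgeR adjusted p = 0.701). Leaving out 1 library gave 0.07 (without WT library 2), 0.08 (without null library 3), 0.27 (without WT library 1) and 0.29 (without null library 1).

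mt-Nd3 (chrM:9459-9806, plus strand) was the only tested messenger with a negative estimate. It was at 105.1 and 65.9 CPM in the WT libraries and 69.0, 87.5 and 87.9 CPM in null, so that all 3 null values lay between the 2 WT values. The log2 fold change was -0.07 ± 0.18 (SE, edgeR adjusted p = 0.92), and 0.29 without WT library 1 and 0.04 without null library 1.

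mt-Nd6 is the only messenger on the minus strand (chrM:13552-14070). It was at 410 and 315 CPM in the WT libraries and 360, 379 and 372 CPM in null. On the log2 scale the difference was 0.03 ± 0.13 (SE, edgeR adjusted p = 0.962). The null libraries lay within 1.05-fold of each other, between the WT values. No source used here gives the strand setting of the counts, so reads of mt-Nd6 and of the opposite strand cannot be told apart. Over the sum of the 12 plus-strand messengers, its counts made 3.91% and 4.16% in WT and 3.97%, 3.42% and 3.44% in null (log2 difference -0.16, exact two-sided permutation p = 0.3, adjusted p = 0.9 over 9 ratios).

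mt-Cytb, cytochrome b and the only mitochondrially encoded subunit of complex III (chrM:14145-15288, plus strand), was at 1196 and 872 CPM in the WT libraries and 964, 1064 and 1273 CPM in null. 2 of the null values lay between the WT values, and null library 3 was above both. The log2 fold change was 0.09 ± 0.16 (SE, 95% interval -0.26 to 0.44, edgeR adjusted p = 0.889).

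mt-Co1, the catalytic subunit of cytochrome c oxidase (chrM:5328-6872, plus strand), had the highest counts of the 8 tested messengers. It was at 6447 and 4360 CPM in the WT libraries and 5593, 6755 and 6224 CPM in null, and the highest value was that of null library 2. The log2 fold change was 0.20 ± 0.16 (SE, 95% interval -0.16 to 0.55, edgeR adjusted p = 0.693). The direction turned to -0.06 without WT library 2, and was 0.49 without WT library 1 (edgeR adjusted p = 0.11).

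**Figure D2:**
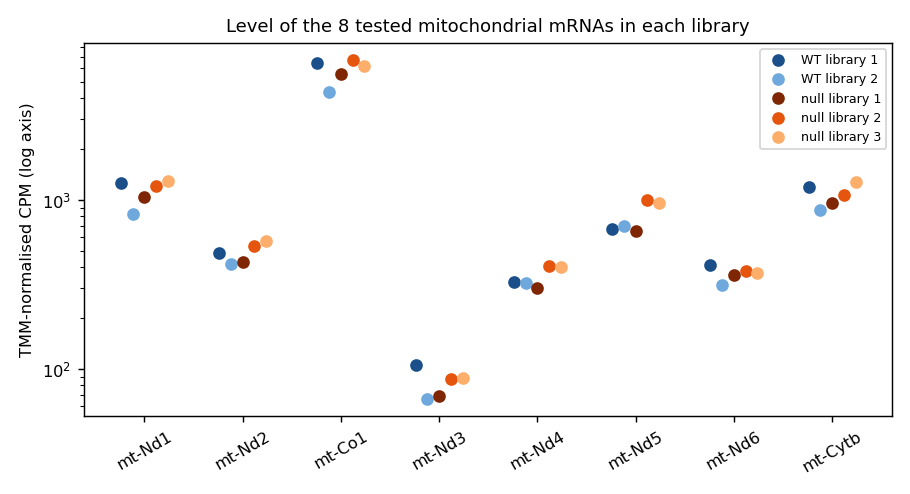
TMM-normalised CPM (logarithmic axis) of the 8 tested messengers, with 1 point for each of the 2 WT (blue) and 3 null (brown to orange) libraries. In each messenger the values of the groups overlap, and WT library 2 is below WT library 1 in 7 of 8, the exception being mt-Nd5.

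**Figure D3:**
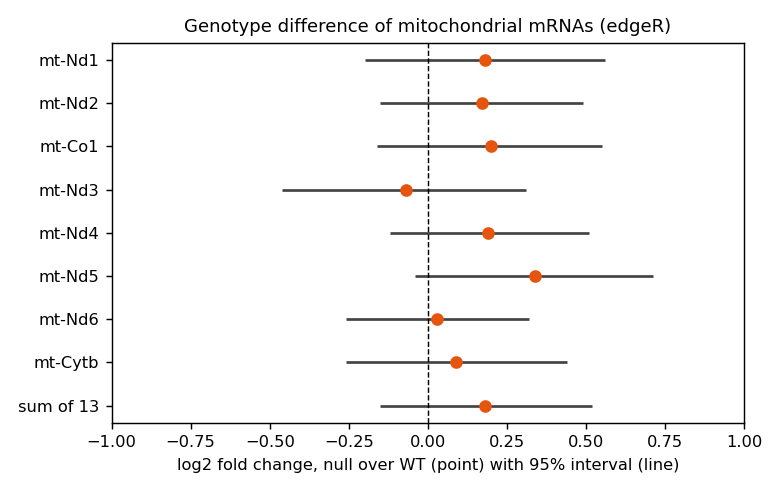
Log2 fold change of null over WT from edgeR (points) with its 95% interval (lines) for the 8 tested messengers and for the sum of all 13. Every interval includes 0, from the lowest bound of -0.46 at mt-Nd3 to the highest of 0.71 at mt-Nd5.

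The intervals of the 8 genes bound the differences that these libraries leave possible. Their lowest bound was -0.46 and their highest 0.71 on the log2 scale. Poisson error at the lowest count of each gene was between 0.572% (mt-Co1) and 4.65% (mt-Nd3). The WT libraries differed by up to 1.59-fold. Poisson error treats each read as an independent molecule, which was not tested here.

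The difference within WT was not the same for all members. WT library 1 exceeded WT library 2 by 1.59-fold in mt-Nd3, 1.53-fold in mt-Nd1, 1.48-fold in mt-Co1, 1.37-fold in mt-Cytb, 1.30-fold in mt-Nd6 and 1.16-fold in mt-Nd2. In mt-Nd4 the ratio was 1.02, and in mt-Nd5 it was 0.955. For comparison, the median absolute log2 difference between the WT libraries was 0.18 over 2851 genes with a WT mean at least that of mt-Nd3, the least abundant tested member. Of these genes, 1.61% had a larger absolute WT difference than mt-Nd1, 2.07% than mt-Co1 and 1.09% than mt-Nd3, while 81.2% exceeded mt-Nd5 and 91.6% exceeded mt-Nd4. The ratio of mt-Nd5 to mt-Nd1 counts was 0.534 and 0.857 in WT and 0.624, 0.828 and 0.743 in null. The library with the lowest ratio and the one with the highest were thus both WT.

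The shares below are of summed counts, to which the 5 near-zero messengers of unknown level add almost nothing. mt-Co1 made up the largest share of these counts in every library. It held 59.1% and 55.3% of the summed counts in WT and 59.4%, 59.1% and 55.7% in null. mt-Nd1 held between 10.4% and 11.5% and mt-Cytb between 9.31% and 11.4%. mt-Nd5 was 6.17% and 8.94% in WT and 6.91%, 8.75% and 8.56% in null, so that its lowest and highest shares were both in WT. Of the 9 ratios compared, only the share of mt-Nd3 had groups that did not overlap: it was 0.964% and 0.837% in WT and 0.734%, 0.765% and 0.786% in null, with an exact two-sided permutation p of 0.1, the smallest possible, and an adjusted p of 0.9.

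Per length, as CPM per kb of annotated gene averaged over the 5 libraries, mt-Co1 was at 3803, mt-Nd1 at 1174, mt-Cytb at 939 and mt-Nd6 at 707. mt-Nd2 was at 470, mt-Nd5 at 437, mt-Nd4 at 255 and mt-Nd3 at 239. The order depends on how the copies are counted. Per kb of distinct 50-base windows mt-Co1 was at 8038 and mt-Nd1 at 1238, mt-Cytb at 981, mt-Nd6 at 781, mt-Nd4 at 701, mt-Nd2 at 538 and mt-Nd5 at 486. mt-Nd4 thereby moved above mt-Nd2 and mt-Nd5. mt-Nd3 is left out of that order because only 6 of its windows were distinct. Its value on the second scale was 13849, above mt-Co1, although it was lowest on the first. The second scale assumes that counts come only from distinct windows, which was not tested. Reads were paired, and the second scale depends on the window length. With 100-base windows, 69.2% of mt-Co1 and 39.2% of mt-Nd4 were distinct, rather than 48.9% and 37.8%. On the first scale the ranges of mt-Nd1 (859 to 1346 CPM per kb) and mt-Cytb (762 to 1113) overlapped over the libraries, but mt-Nd1 was above mt-Cytb in each of the 5. mt-Nd2 was above mt-Nd5 in all libraries other than null library 2.

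Nuclear genes that serve the same organelle were likewise not called. Of 72 tested nuclear subunits of complexes I, III, IV and V, 0 were called higher and 0 lower by edgeR, DESeq2 or limma-voom, with 0 at an unadjusted edgeR p under 0.05 and a median log2 fold change of -0.02. Over all tested genes, 2.48% were called by edgeR, 12.8% passed at an unadjusted p under 0.05, and the median was 0.00. They summed to 6616 and 6218 CPM for WT, and to 6571, 5636 and 7048 CPM for null. Null library 2 was lowest in the nuclear subunits and highest in the mitochondrial messengers. Between the WT libraries, the median log2 ratio of library 2 to library 1 was -0.14 in the nuclear subunits. The lowest p in complex I was that of Ndufa1, an accessory subunit (log2 fold change 0.44 ± 0.29 SE, edgeR adjusted p = 0.585), and in complex III that of Uqcrb, which binds ubiquinone (-0.30 ± 0.18 SE, edgeR adjusted p = 0.527). In complex IV it was that of Cox6b1, at -0.23 ± 0.20 (SE, edgeR adjusted p = 0.712), and in complex V that of Atp5g1, a gene for the rotating ring of ATP synthase, at -0.22 ± 0.17 (SE, edgeR adjusted p = 0.68).

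**Figure D4:**
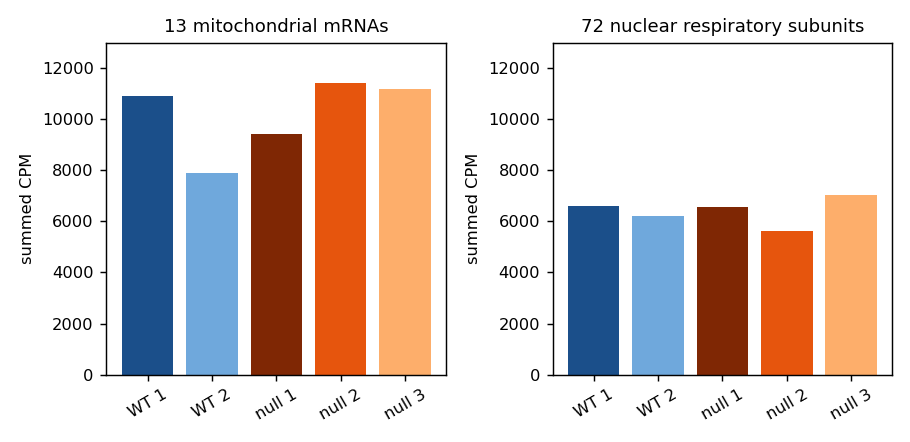
Summed CPM (bars from 0) of the 13 mitochondrial messengers (left) and of 72 matched nuclear subunits of complexes I, III, IV and V (right) in each library. The mitochondrial sum runs from 7881 (WT library 2) to 11436 (null library 2), and the nuclear sum from 5636 (null library 2) to 7048 (null library 3).

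Nor was any gene called among those that maintain and express mitochondrial DNA. Of 91 tested members of 6 lists (transcription, replication, RNA processing, RNA stability, regulators and mitochondrial transfer RNA synthetases), 0 were called in either direction with any of the 3 tools. At an unadjusted edgeR p under 0.05, 3 had a positive and 1 a negative fold change, where 12.8% of all genes passed, and 2.48% of all genes were called. The median log2 fold change was -0.01. Tfam, which packages mitochondrial DNA and starts its transcription, was at 81.2 and 65.8 CPM in the WT libraries and 73.4, 70.3 and 75.0 CPM in null (log2 fold change -0.01 ± 0.12 SE, edgeR adjusted p = 0.983). All its null values lay between the WT values.

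The lowest p among the transcription genes was that of Mterf2, a transcription termination factor family member, at 7.14 and 4.84 CPM in the WT libraries and 8.53, 9.90 and 9.25 CPM in null. All null values were above both WT values, and the log2 fold change was 0.61 ± 0.26 (SE, edgeR adjusted p = 0.348). Rrm2b, the p53-inducible ribonucleotide reductase subunit that supplies nucleotides for mitochondrial DNA, was at 17.5 and 12.1 CPM in the WT libraries and 25.3, 22.7 and 21.5 CPM in null (log2 fold change 0.64 ± 0.19 SE, edgeR adjusted p = 0.142). With no filter on low counts its adjusted p was 0.0475. Cdk5rap1, which modifies mitochondrial transfer RNAs, was at 14.2 and 10.4 CPM in the WT libraries and 34.8, 23.4 and 10.4 CPM in null (log2 fold change 0.88 ± 0.38 SE, edgeR adjusted p = 0.352), so that null library 3 was at the WT level. It was called with no filter (adjusted p = 0.0013) and without null library 3 (edgeR adjusted p = 0.0141). The share of all genes called in these settings is not given here. The calls of Rrm2b and Cdk5rap1 in them therefore cannot be set against a general rate.

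Among the genes of RNA stability, Tbrg4, a FASTK family protein that protects mitochondrial messengers, was at 125 and 127 CPM in the WT libraries and 117.9, 105.3 and 112.9 CPM in null, all below both WT values (log2 fold change -0.17 ± 0.10 SE, edgeR adjusted p = 0.568). Of the synthetases, Lars2, which charges the mitochondrial leucine transfer RNA, was the most abundant. It was at 774 and 837 CPM in the WT libraries and 1498, 484 and 657 CPM in null, and its highest and lowest values were both in null. Vars2, the valine enzyme, had the lowest p of the synthetases (log2 fold change -0.27 ± 0.14 SE, edgeR adjusted p = 0.443).

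Other features of the libraries moved with genotype or with single libraries. The total count ranged from 6972753 (WT library 2) to 8150774. Gm42418 and Gm26917, 2 entries that overlap nuclear ribosomal RNA sequence, held 5.32% and 7.71% of counts in WT and 8.09%, 6.80% and 6.61% in null. Gabbr1 itself was at 49.5 and 57.4 CPM in the WT libraries and 38.5, 34.8 and 33.0 CPM in null (log2 fold change -0.59 ± 0.13 SE, edgeR adjusted p = 0.0361). No source used here says which part of the gene is deleted, so its reads do not check the labels. Of the genes that define the gate, Kit was at 995 and 1049 CPM for WT and 864, 987 and 883 CPM for null, and Ly6a (Sca-1) at 26.8 and 30.3 CPM for WT and 29.8, 12.9 and 24 CPM for null. The summed level of 12 B-lineage markers was 272 and 111 CPM in the WT libraries and 794 to 1432 CPM in null. 12 of 12 were called higher, where 2.15% of all tested genes were. The level of 12 markers of endothelium and stroma was 186 and 195 CPM in the WT libraries and 309 to 413 CPM in null, with 8 of 12 called. 10 mature neutrophil markers summed to 145 and 107 CPM in the WT libraries and 2226, 594 and 132 CPM in null. Of 8 tested, edgeR called 0, and 8 had an unadjusted edgeR p under 0.05, against 12.8% of all genes. 8 cartilage markers summed to 0.985 and 1.14 CPM in the WT libraries and 154, 130 and 20.2 CPM in null, with 3 of 4 tested called and 4 of 8, Col2a1 and Acan among them, at 0 in WT. Erythroid markers summed to 5.54 and 5.13 CPM for WT and 35.0, 7.79 and 3.58 CPM for null, so that null library 1 was highest. T and NK cell markers summed to at most 57.6 CPM and skeletal muscle markers to at most 8.83 CPM in any library. Only 2 markers of each of these 3 lists were tested, with 0 called. The part of these cells in the mitochondrial levels was not tested.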

How the data were processed

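The table that the authors deposited holds raw counts of reads for each gene in 5 libraries, with no normalization. The tools, per the submitters' processing notes, were STAR and featureCounts, with mm10. No source used here gives their versions, the annotation release, the strand setting or how reads with several matches were handled. Libraries were made from 3.6 to 5 ng of RNA with a low-input kit and mouse depletion probes and read as 50-base pairs, per the labels' protocols. The labels name the molecule as polyA RNA.

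Of the identifiers, 99.5% matched GENCODE release M21, which gave symbols and positions. After filterByExpr and TMM scaling, genotype alone was fitted by the quasi-likelihood method of edgeR 4.0.16 (R 4.3.3). Adjustment ran over all 13467 genes tested. The standard errors and 95% intervals came from the F statistic. Sums of messengers were fitted as extra rows that did not enter the adjustment. No ratio with ribosomal or transfer RNAs was computed. Nuclear copies were aligned with blastn 2.17.0 to annotated pseudogene transcripts at an identity of at least 80%; a genome sequence was not used. The code was tested on simulated counts.

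Members and lists were chosen with earlier results of these data known. Every member is accounted for, and of each nuclear list the genes called, or else the lowest p or the most abundant, could be named. 3 list entries (Prorp, Ndufb1 and Atp5md) matched no symbol. Alternatives were RLE and upper quartile factors, scaling on nuclear genes, no filter or a floor of 1 CPM per library, limma-voom (limma 3.58.1), DESeq2 1.42.0 and each library left out. Leaving out 3 genes that overlap ribosomal RNA sequence was added after the data were seen.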

Additional observations from a re-analysis of the deposited data

How the results depend on the processing

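RLE and upper quartile factors, scaling on nuclear genes, both other filters, DESeq2, limma-voom and the removal of 3 genes that overlap ribosomal RNA sequence turned no direction among the 8 messengers and the sums, and 0 members were called in any of them or with a library left out. Leaving out 1 library moved the log2 fold change of the sum of 13 from -0.03 to 0.43, and that of mt-Nd6 over the plus-strand messengers from -0.23 to -0.12. For the sum the edgeR p was 0.0111 without WT library 1, where an exact permutation test gave 0.25. Without WT library 2 the complex IV sum, nearly all of it mt-Co1, turned to -0.06, mt-Nd1 to -0.09, mt-Co1 to -0.06, mt-Nd6 to -0.15 and mt-Cytb to -0.12. Without WT library 1, mt-Nd1 was 0.51, mt-Nd6 0.22 and mt-Cytb 0.33, and without WT library 2 mt-Nd3 was -0.37. mt-Cytb was -0.03 without null library 3, and mt-Nd3 was 0.29 without WT library 1 and 0.04 without null library 1. The complex IV sum was 0.49 without WT library 1 (unadjusted edgeR p = 0.00477, exact permutation p = 0.25). With a WT library left out, 1 WT library remains; the cause of the sign changes was not otherwise tested. In the nuclear lists, 2 genes were called higher with no filter (Cdk5rap1 and Rrm2b) and 1 without null library 3 (Cdk5rap1), against 0 otherwise. The share of all genes called in these settings is not given here, and the cause was not tested. No paired analysis was possible because the labels give no replicate numbers that the groups share. Precision is limited by 2 WT libraries, and counts of at most 9 give no level for the 5 near-zero messengers.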
